A study of Saccharomyces cerevisiae with 12 samples.

Results

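The response of wild-type (WT) cells of *Saccharomyces cerevisiae* to Congo red (CR) was described across all genes with a probe set on the array, changes of less than 2-fold included. It rests on 6 of the 12 arrays of the series, 3 of CR-treated and 3 of untreated WT cells, and on 5449 genes, each represented by the probe set with the highest mean over all arrays among those that the platform annotation gives to 1 gene. CR-treated cells were BY4741, a haploid laboratory strain of mating type a with auxotrophic markers, grown in rich medium with 30 μg/mL of the dye. Untreated cells were the same strain without it, and the methods state that each of 3 cultures was split into both parts, so that arrays with the same number were taken as parts of 1 culture. The other 6 arrays are of a *sus1*Δ strain, in which a marker replaces *SUS1*, with and without CR; they enter here only where named. Exposure lasted 3 h by the titles and protocols of the samples and 2 h by the design text of the series, which could not be settled here. Values are log2 signals of whole cultures, so a smaller share of cells with a transcript and less of it per cell cannot be told apart.

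The yeast cell is held in shape by a wall of glucan, mannoproteins and a little chitin. CR is a dye with affinity for chitin, and it is used to damage the wall of living cells. Wall damage is sensed by mucin-like proteins of the plasma membrane, which act through the GTPase Rho1 on protein kinase C and a MAP kinase cascade that ends in Slt2. Slt2 activates the transcription factor Rlm1 and, with its kinase-like paralog Kdx1, the factor SBF. This route is the cell wall integrity (CWI) pathway, and among its known targets are genes for wall proteins, wall enzymes and the synthesis of glucan and chitin.

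The strain markers were in keeping with the label for *URA3*, *LEU2* and *MET17*, which lay between 2.57 and 4.44 on all 6 arrays, near the lower end of the signals (the lowest 5% of probe sets ended at 4.53 to 4.80 on these arrays). *HIS3*, of which BY4741 carries an internal deletion, read 9.92 to 10.17. Of the genes of a-type cells, *STE2* read 11.29 to 12.25 and *MFA1* 11.14 to 13.10, while the alpha-type gene *MF(ALPHA)1* read 3.03 to 3.71 and *STE3* 5.17 to 5.76. *SAG1*, the alpha-agglutinin gene, also counted as alpha-type, went against this with 8.13 to 8.57. Culture 3 stood apart from cultures 1 and 2 in both of its parts for genes of mating and iron uptake, so results that depend on it are also given without it. Medians of the 6 arrays lay between 9.08 and 9.15, and the precision is limited by the 3 arrays per group.

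After CR, 522 genes were higher (9.58% of the genes tested) and 461 were lower (8.46%) at an adjusted p under 0.05 in limma, with the culture as a block. The response was broad and mostly small in size: 87 genes (1.6%) rose at least 2-fold and 7 (0.128%) fell to a ratio of 0.5 or less. Of the genes that were higher, 147 changed between 1.5-fold and 2-fold and 288 by less than 1.5-fold, so that 83.3% of them lay under 2-fold. Among the genes that were lower, 125 changed between 1.5-fold and 2-fold and 329 by less than 1.5-fold, which put 98.5% of them under 2-fold. The median ratio of CR-treated to untreated cells was 1.46 for the genes that were higher and 0.715 for those that were lower. The smallest change that passed was 0.30 on the log2 scale in either direction. The median change of all genes was -0.02, with quartiles at -0.17 and 0.13. Without culture 2 the counts were 271 higher and 157 lower, without culture 3 they were 441 and 281, and without culture 1 they were 474 and 530, with 21 genes at a ratio of 0.5 or less without culture 1 and 13 without culture 2. With the culture block left out, 218 were higher and 107 lower. The responses of *sus1*Δ cells, the other strain of the series, and of WT cells differed at an adjusted p under 0.05 in limma for 45 of the 5449 genes (0.826%), with the difference, *sus1*Δ minus WT, above 0 for 12 and below 0 for 33.

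All 983 called genes moved the same way in the 3 cultures. The calls were made from these same 3 changes, so this agreement is no separate evidence. It was not counted over all genes. For 423 of the 522 higher genes, the 3 CR-treated arrays lay above the 3 untreated ones, a pattern seen in 699 (12.8%) of all genes. For 356 of the 461 lower genes they lay below, as in 799 (14.7%) of all genes. Genes that rose were dimmer in untreated cells than genes that fell, with median signals of 8.66 and 9.63. In the dimmest 25% of untreated signals 191 genes rose and 69 fell, whereas in the brightest 25% it was 69 and 136. The untreated signal is also subtracted to give the change, so this split is not independent of the calls. Across the 5449 genes, the changes of culture 2 correlated with those of culture 1 with r = 0.788 and with those of culture 3 with r = 0.754, and cultures 1 and 3 with r = 0.668. These are correlations across genes, which are not independent replicates.

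**Figure D1:**
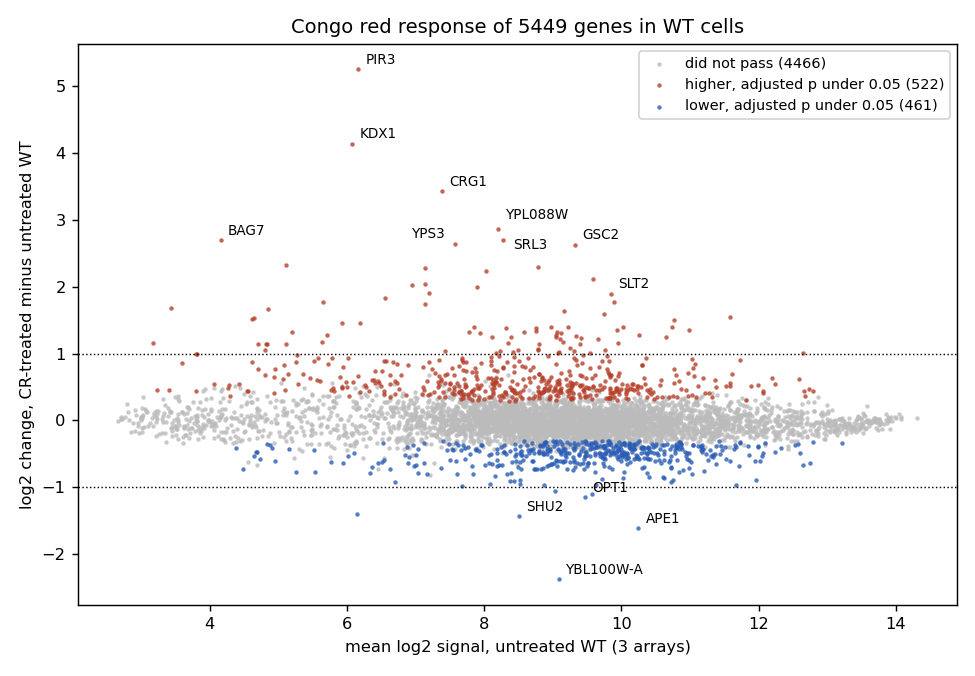
The log2 change after CR (CR-treated minus untreated WT cells, vertical axis) is plotted against the mean log2 signal of 3 untreated arrays (horizontal axis) for 5449 genes. Red points are the 522 genes that were higher, blue points the 461 that were lower and grey points the rest; dotted lines mark 2-fold. Most coloured points lie between the dotted lines, and the 87 increases of at least 2-fold reach further from 0 than the 7 decreases.

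The largest increase was that of *PIR3* (YKL163W), which encodes an O-glycosylated protein bound to the wall. It read 11.39, 11.37 and 11.49 on the CR-treated arrays of cultures 1 to 3, against 6.0, 6.64 and 5.86 on the untreated arrays, a ratio of 38.1 (log2 change 5.25, SE 0.169, adjusted p = 3.70e-05 from limma, where SE is the standard error of the change). The CR-treated arrays differed by little more than 0.1 among themselves, while culture 2 stood highest without the dye. *KDX1* (YKL161C) read 10.04, 10.02 and 10.60 on the CR-treated arrays and 5.93, 5.84 and 6.47 on the untreated arrays, and the change came to 4.14, with an SE of 0.0811 and an adjusted p of 4.28e-06 from limma. It was even across the cultures, at 4.11, 4.18 and 4.13. Culture 3 was the highest in both parts for this gene.

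Of the other 8 largest increases, *CRG1*, which encodes a methyltransferase linked to lipid homeostasis, read 10.59, 10.80 and 11.05 on the CR-treated and 7.31, 7.51 and 7.31 on the untreated arrays. *YPL088W*, which encodes a putative aryl alcohol dehydrogenase, read 10.83, 11.04 and 11.32 with CR and 8.16, 8.31 and 8.15 without it. In both genes the arrays of the 2 groups were far apart, and within the CR-treated group culture 1 was the lowest and culture 3 the highest. *SRL3*, a gene of the G1 to S transition, read 10.91, 10.86 and 11.15 on CR-treated and 8.40, 8.31 and 8.09 on untreated arrays. *BAG7*, whose product switches Rho1 off by speeding its GTP hydrolysis, read 6.88, 6.87 and 6.84 with CR and 4.42, 4.20 and 3.87 without it, where it lay among the lowest 5% of signals. *YPS3*, *GSC2*, *RTA1* and *YNR065C* completed the 10, with log2 changes of 2.65, 2.63, 2.33 and 2.29.

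Decreases were smaller in size. *YBL100W-A*, a gene of a Ty2 retrotransposon, a family so alike that 1 probe set can detect several of its copies, read 7.15, 5.97 and 7.02 on the CR-treated and 9.04, 8.45 and 9.78 on the untreated arrays (log2 change -2.38, SE 0.162, adjusted p = 4.91e-04 from limma). Its arrays spanned more than 1 log2 unit within each group, without overlap between the groups. *APE1*, which encodes a vacuolar aminopeptidase, read 8.53, 8.81 and 8.55 with CR and 10.25, 10.52 and 9.97 without it (log2 change -1.62, adjusted p = 3.01e-04 from limma). *SHU2*, which encodes a protein of a recombination repair complex, read 7.30, 7.07 and 6.83 on CR-treated arrays, against 8.60, 8.51 and 8.39 on untreated arrays. Both genes fell by at least 1.30 on the log2 scale in each culture.

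*GUP2*, which encodes a membrane protein of the O-acyltransferase family, had a change of -1.40, *OPT1*, the gene of an oligopeptide and glutathione transporter, of -1.15, and *EFG1*, which is needed for 18S rRNA maturation, of -1.09. On the CR-treated arrays *GUP2* read 4.94, 4.94 and 4.35, near the lower end of the signals. The other 4 of the 10 largest decreases with arrays that do not overlap did not reach 2-fold. They were *DHR2* and *FAF1*, both of small ribosomal subunit assembly, *SYO1*, the gene of an import chaperone of ribosomal proteins, and *LYS20*, which encodes a homocitrate synthase of lysine synthesis, with log2 changes of -0.96 or -0.95. *PHM6*, a gene of the phosphate regulon, was the seventh to fall to a ratio of 0.5 or less, and its arrays overlapped, with 7.29, 8.07 and 8.58 for CR-treated and 8.29, 8.78 and 10.04 for untreated cells.

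**Figure D2:**
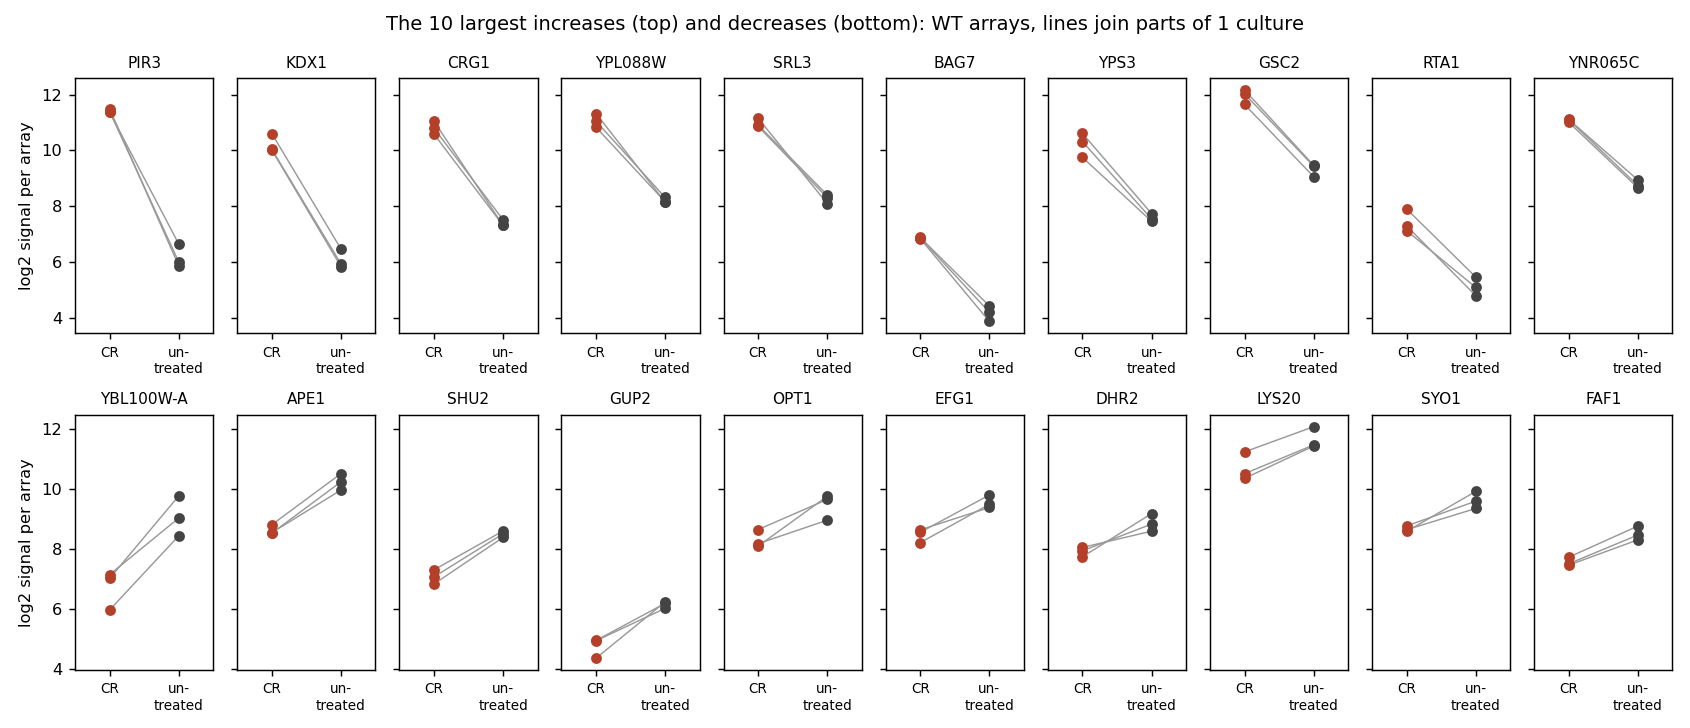
Each panel shows 1 gene, with the log2 signal of the 3 CR-treated WT arrays (red, left) and the 3 untreated WT arrays (dark grey, right), and a line that joins the parts of 1 culture. The top row holds the 10 largest increases and the bottom row the 10 largest decreases, both with arrays that do not overlap. *PIR3* differs by 5.25 and *FAF1* by -0.95 between group means. In each panel the 3 lines slope the same way, which follows from the choice of genes without overlap.

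Counts in the gene lists that follow stand beside the shares of all genes, 9.58% higher and 8.46% lower. Of the 6 sensor genes measured, 2 were higher and 1 was lower. *MID2*, one of the main sensors of the pathway, read 10.78, 10.51 and 10.50 on CR-treated and 9.71, 9.63 and 9.80 on untreated arrays, a change of 0.88 (adjusted p = 0.00319 from limma). Its paralog *MTL1* changed by 0.84 and rose in each culture, from different starting levels: it read 5.99, 6.93 and 6.76 with CR and 5.04, 5.99 and 6.12 without it, so the groups overlapped. *WSC4* was lower, with 7.31, 7.38 and 6.40 on CR-treated and 8.01, 8.28 and 7.22 on untreated arrays (log2 change -0.80, adjusted p = 0.00280 from limma). Here too the arrays overlapped, because culture 3 was the lowest in both parts. The remaining sensors *SLG1* (also called *WSC1*), *WSC2* and *WSC3* had changes of 0.03, 0.26 and 0.07 and did not pass. Without the culture as a block, the calls of *MTL1* (adjusted p = 0.214) and *WSC4* (adjusted p = 0.234 from limma) were lost.

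Among 10 genes of Rho1 and its regulators, 4 were higher and none was lower in limma (0 at an unadjusted p under 0.05; 0 by the methods' t-test). *RHO1* itself changed by 0.53, with 12.50, 12.53 and 12.54 on CR-treated arrays and 12.06, 11.98 and 11.94 on untreated arrays. Beside *BAG7*, the exchange factor genes *ROM1* (0.42) and *ROM2* (0.33) were higher. These 3 changes under 1.5-fold were lost when culture 2 was left out (adjusted p = 0.0643, 0.0929 and 0.251 from limma), and that of *ROM2* also without culture 1 (adjusted p = 0.133). *SAC7*, another GTPase-activating protein gene of Rho1, had a change of 0.18 and did not pass.

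Within the kinase cascade, the transcripts at its lower end were the ones that moved. *SLT2* (YHR030C) read 11.73, 11.65 and 11.84 on CR-treated and 9.83, 9.83 and 9.86 on untreated arrays, which lay within 0.2 of each other in each group, and rose 3.72-fold (log2 change 1.89, SE 0.0840, adjusted p = 1.14e-04 from limma). *RLM1* read 9.19, 9.34 and 9.55 with CR and 7.93, 8.13 and 8.28 without it, a change of 1.25 (adjusted p = 3.97e-04 from limma). The upstream kinase genes *PKC1*, *BCK1*, *MKK1* and *MKK2* changed by -0.07, -0.05, -0.03 and 0.04, and the SBF subunit genes *SWI4* and *SWI6* by -0.05 and -0.12, and none of these passed. Of 8 phosphatase genes of MAP kinases, *PTP2* (1.39) and *MSG5* (1.17), whose products act on Slt2, were higher. *PTP2* read 10.47, 10.70 and 10.68 on CR-treated and 9.08, 9.37 and 9.22 on untreated arrays. *SDP1* and *PTP3*, which also encode phosphatases of MAP kinases, had changes of -0.22 and -0.40 and did not pass.

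All 5 PIR genes measured, which encode wall proteins with internal repeats, were higher. *PIR5* read 6.47, 6.98 and 6.12 on CR-treated and 5.85, 5.75 and 5.15 on untreated arrays, and *HSP150* (also *PIR2*) read 13.15, 13.21 and 13.24 with CR and 12.59, 12.63 and 12.54 without it. *PIR3* apart, their changes were modest, at 0.94 for *PIR5*, 0.61 for *HSP150*, 0.44 for *CIS3* and 0.44 for *PIR1*, but the 2 groups of arrays did not overlap for any of the 5. Without culture 2, 3 of the 5 passed, and *CIS3* did not (adjusted p = 0.0770 from limma).

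Of 27 genes for wall proteins with a GPI anchor, 6 were higher and 2 were lower. *PST1* read 11.53, 11.76 and 11.72 on CR-treated and 9.71, 10.08 and 9.89 on untreated arrays (log2 change 1.78, adjusted p = 1.24e-04 from limma). *CWP1*, which encodes a mannoprotein of the wall, reached 13.15, 13.13 and 13.13 in CR-treated cells, nearly the same signal in each culture, against 11.74, 11.83 and 11.18 in untreated cells. *SED1*, a main wall protein of non-growing cells, read 13.68, 13.54 and 13.73 with CR and 12.65, 12.99 and 12.28 without it, just over 2-fold. *SPI1* (0.82), *CCW14* (0.64) and *DAN4* (0.54) were also higher, whereas *TIR3* (-0.62) and *TIR1* (-0.37), genes of the cold and anaerobic mannoproteins, were lower. The list thus moved both ways, with a median of 0.10 beside -0.02 for all genes. The call of *TIR1* was lost without culture 1, without culture 2 and with the culture block left out, while that of *TIR3* was kept. Of the higher genes, *DAN4* was lost without culture 2. Without culture 1, 4 members were lower, with *TIR3* among them and *TIR1* not.

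Glucan synthesis was represented by 15 genes, 6 of them higher and none lower in limma (0 at an unadjusted p under 0.05 and 0 by the methods' t-test). *GSC2* (*FKS2*), which encodes the stress-inducible catalytic subunit of β-1,3-glucan synthase, read 11.65, 12.03 and 12.16 on CR-treated arrays and 9.06, 9.43 and 9.46 on untreated arrays (log2 change 2.63, SE 0.0826). Its paralog *FKS1*, the main subunit in growing cells, changed by 0.44. For β-1,6-glucan, *KNH1* (0.87), *ROT1* (0.72), *KRE6* (0.59) and *SKN1* (0.46) were higher. When culture 2 was left out, 3 of the 6 passed, and *KRE6* was among those lost (adjusted p = 0.0572 from limma).

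Enzymes that cut or join wall polymers gave 10 higher and 3 lower genes of 23. *CRH1*, which encodes a transglycosylase that links chitin to glucan, read 12.16, 12.02 and 12.82 with CR and 10.95, 10.79 and 11.21 without it (log2 change 1.35, adjusted p = 0.00101 from limma). *DFG5*, a gene for the attachment of GPI proteins to the wall, changed by 1.28 and the exoglucanase gene *EXG2* by 1.04. The other 7 higher genes, from *NCA3* (0.81) to *SIM1* (0.30), among them *EXG1*, *SCW10*, *BGL2*, *GAS5* and *GAS2*, stayed under 2-fold. The lower genes *GAS3* (-0.40) and *CRR1* (-0.39) did not pass without culture 2 or without culture 3, and *DSE4* (-0.34) not without any 1 of the 3 cultures, while the higher genes numbered 5 without culture 2.

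Genes of several steps of chitin synthesis rose, from its precursor to its placement. *GFA1*, for the entry step of the hexosamine pathway, the source of the chitin precursor, read 12.13, 12.43 and 12.20 on CR-treated and 10.54, 10.95 and 10.79 on untreated arrays (log2 change 1.5, adjusted p = 2.41e-04 from limma). *PCM1*, a later enzyme gene of that pathway, changed by 1.25, whereas *GNA1* (-0.21) and *QRI1* (-0.04) did not pass. Of 17 genes for chitin synthases, their transport and chitin turnover, 7 were higher and none was lower in limma (0 at an unadjusted p under 0.05; 0 by the methods' t-test).

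*CHS1*, the gene of a repair synthase, read 10.99, 11.30 and 11.05 on CR-treated and 9.88, 10.11 and 9.88 on untreated arrays (log2 change 1.16, adjusted p = 5.25e-04 from limma). *CHS3*, the gene of the synthase that makes most wall chitin, changed by 0.77, its activator gene *SKT5* by 0.68, and the genes *CHS7* and *CHS6*, which bring the synthase to the cell surface, by 0.83 and 1.03. *RCR1*, known for a role in resistance to CR itself, read 9.28, 9.39 and 9.14 with CR and 8.37, 8.23 and 8.10 without it (1.04). *BCH2*, the seventh, was lost without any 1 of the 3 cultures, and the calls of the other 6 were kept.

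Of 7 genes of the yapsins, GPI-anchored aspartyl proteases of the cell surface, 4 were higher. *YPS3* read 10.32, 9.75 and 10.61 on CR-treated and 7.55, 7.46 and 7.74 on untreated arrays, with culture 2 the lowest after CR. *YPS6* read 8.83, 8.92 and 8.86 with CR, almost level across cultures, and 6.83, 7.44 and 7.12 without it. *YPS1* changed by 1.35 and *YPS7* by 0.44; the call of *YPS7* was lost without culture 1 or culture 2 (adjusted p = 0.0548 and 0.132 from limma). *MKC7* had a change of -0.23 and did not pass.

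Steps of wall protein modification and transport other than these showed few calls. Of 20 mannosyltransferase genes of the Golgi, *KTR2* was higher, with 9.92, 9.78 and 9.96 on CR-treated and 8.02, 7.92 and 7.73 on untreated arrays (log2 change 1.99, adjusted p = 1.44e-04 from limma), and it alone passed. None of 7 protein O-mannosyltransferase genes and none of 18 genes for the COPII coat and its cargo passed in limma; at an unadjusted p under 0.05, 0 of 7 and 3 of 18 did, and by the methods' t-test with adjustment none did. In the GPI anchor list of 23 genes, *SPT14* was higher (0.69) and *GPI15* lower (-0.36), and the call of *GPI15* was lost without culture 2 or culture 3. Of 25 genes for the exocyst, the septins and polarity, *GIC2* was higher (0.43), a call that was also lost without culture 2 or culture 3.

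**Figure D3:**
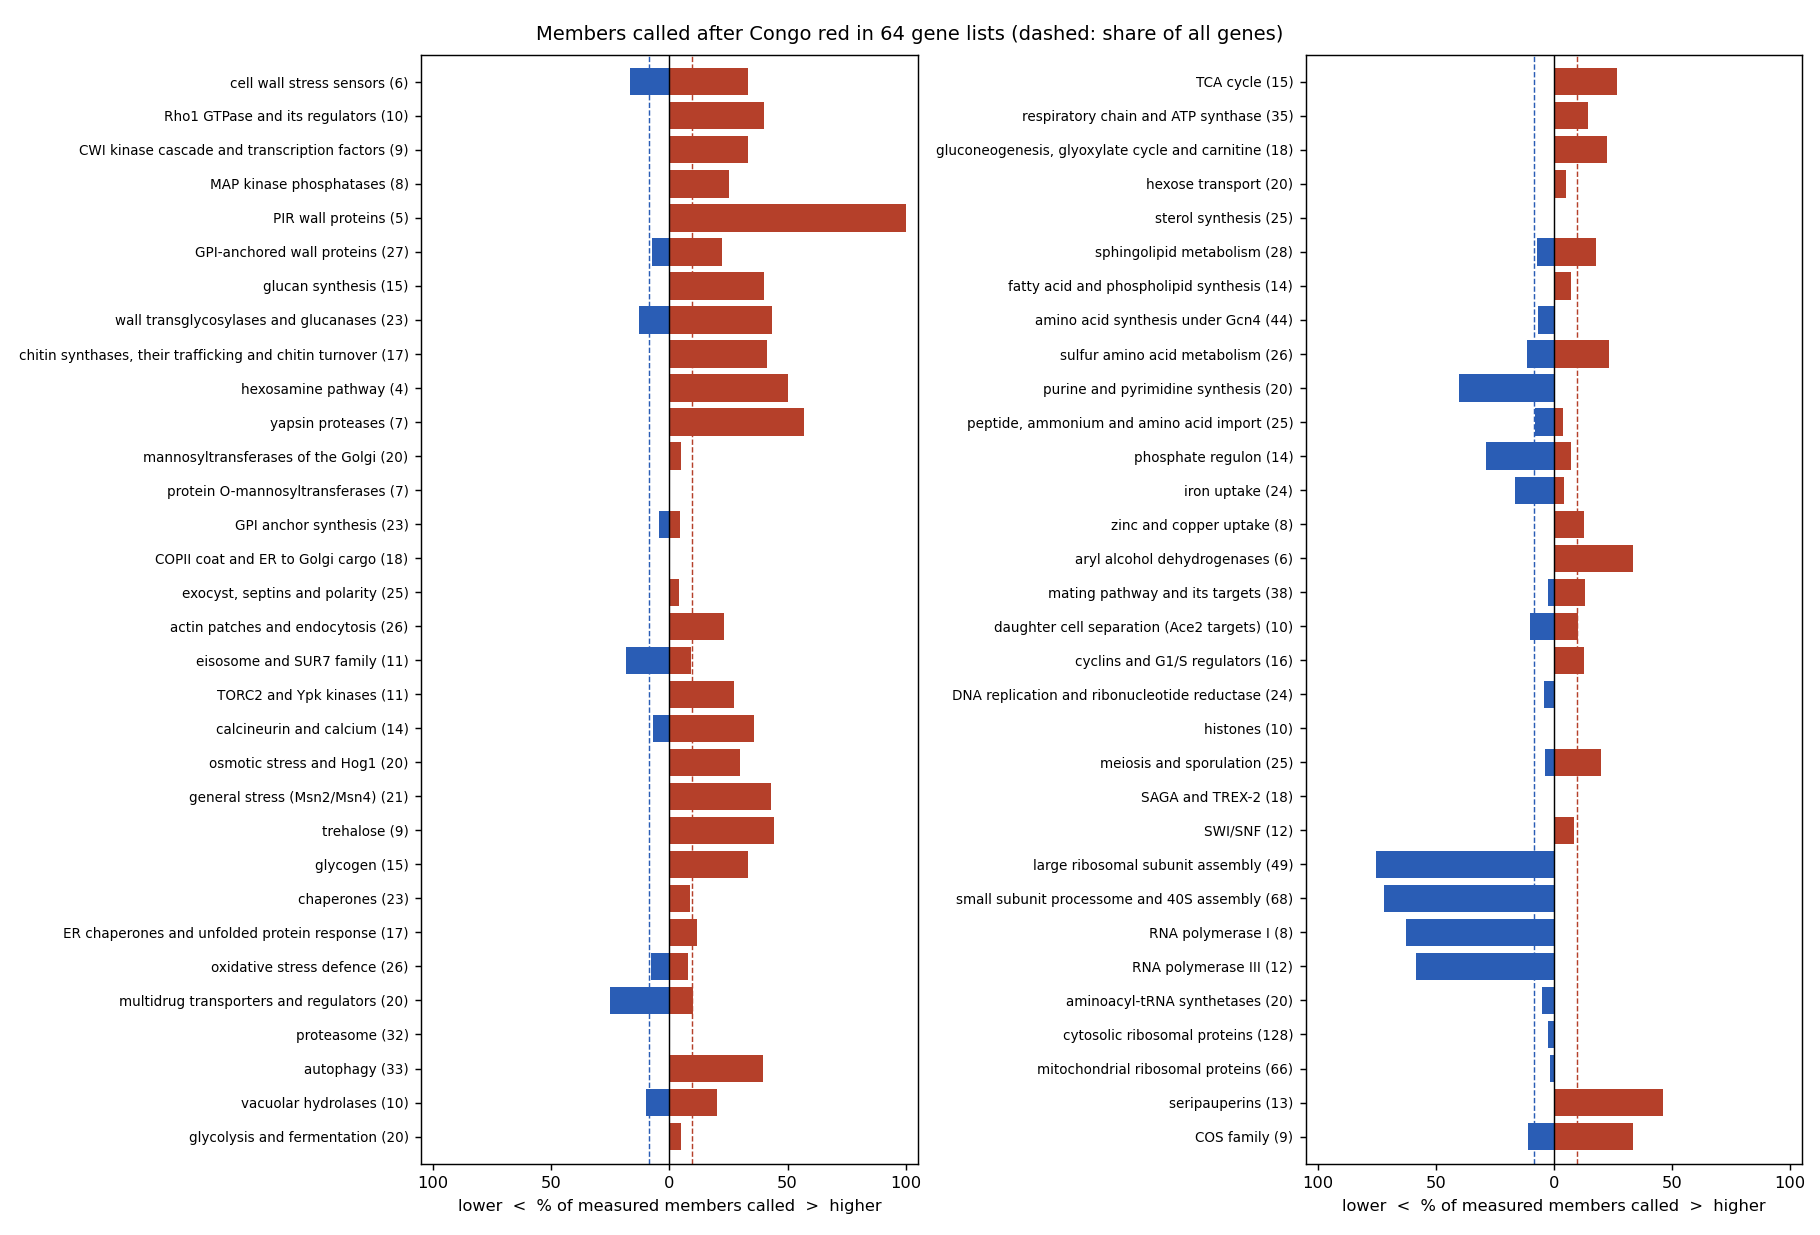
For each of 64 gene lists, with the number of measured members in brackets, bars give the percentage of members that were higher (red, to the right) and lower (blue, to the left) in CR-treated than in untreated WT cells at an adjusted p under 0.05. Dashed lines mark the shares of all genes, 9.58% higher and 8.46% lower. PIR wall proteins reach 5 of 5 members to the right, and the lists of ribosome assembly reach 37 of 49 and 49 of 68 to the left.

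Of 11 genes of TORC2 and the Ypk kinases, 3 were higher, with a median of -0.01, and 1 was higher with the block left out or without any 1 of the 3 cultures. *YPK2*, which encodes a kinase downstream of TORC2, read 8.75, 8.99 and 9.17 on CR-treated and 6.54, 7.09 and 7.22 on untreated arrays (log2 change 2.02, adjusted p = 1.24e-04 from limma), while its paralog *YPK1* changed by 0.46 and *PKH2* by 0.40. The smaller changes of *YPK1* and *PKH2* were lost without any 1 of the 3 cultures, and the subunit genes of TORC2 did not pass. Of 11 genes of the eisosome and the SUR7 family at the plasma membrane, 1 was higher and 2 were lower, with a median of -0.04. *PUN1*, a membrane protein gene, read 10.62, 10.79 and 11.00 with CR and 9.23, 9.32 and 8.94 without it (1.64), whereas the eisosome genes *NCE102* (-0.67) and *SUR7* (-0.43) were lower. *SUR7* was lost without culture 2 or culture 3.

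Of 14 genes of calcium signalling and calcineurin, 5 were higher and 1, *FIG1* (-0.33), was lower. *CMK2*, the gene of a calmodulin-dependent kinase, read 9.83, 9.76 and 10.22 on CR-treated and 8.73, 8.82 and 8.84 on untreated arrays (1.14), and the calcineurin gene *CMP2* and its regulator genes *RCN2* and *RCN1* changed by 0.66, 1.09 and 0.46. Without culture 2, 3 of the 5 passed. The calls of *PMC1*, the fifth, and of *FIG1* were lost without any 1 of the 3 cultures. The osmotic stress list gave 6 of 20 genes higher, led by *SSK22*, which encodes a kinase upstream of Hog1, with 9.16, 9.19 and 9.42 with CR and 7.64, 7.62 and 8.30 without it (1.40). Its phosphorelay partner gene *SSK1* (0.66) and the glycerol synthesis genes *GPP2* (0.67) and *GPD1* (0.63) were under 2-fold. When culture 1, 2 or 3 was left out, 4 of the 6 osmotic genes kept their call each time. With the culture block left out 3 did, and *GPD1* was lost. In sphingolipid metabolism, *YSR3*, a gene of sphingoid base phosphate turnover, changed by 1.30 and *SUR1*, a gene of the mannosylation of sphingolipids, by 0.79. Of the 28 genes of this list, 5 were higher and 2 lower, against 9.58% and 8.46% of all genes. Without culture 2 it was 3 higher and 0 lower, without culture 1 it was 4 and 0, and without culture 3 it was 5 and 1.

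Of 38 genes of the mating pathway and its targets, 5 were higher and 1 was lower, against 9.58% and 8.46% of all genes. *PRM5*, a pheromone-regulated gene that is also a target of the CWI pathway, read 11.73, 11.58 and 11.81 on CR-treated and 9.64, 9.66 and 9.47 on untreated arrays (log2 change 2.12, adjusted p = 1.36e-04 from limma). *PRM10* read 9.38, 9.45 and 9.41 with CR and 7.08, 7.42 and 6.90 without it, and *AFR1*, which encodes a protein of the pheromone response and of mating projections, read 10.18, 10.50 and 10.10 with CR and 7.95, 8.53 and 7.61 without it. These 3 genes rose more than 4-fold, and *KSS1* (0.62) and *PRM4* (0.46) by less. The call of *PRM4* was lost without culture 2 and with the culture block left out. The pheromone-induced genes *FIG1*, *PRM6*, *PRM1*, *PRM2* and *PRM3* had changes of -0.33, -0.16, 0.42, -0.13 and -0.06. Of these, *FIG1* passed as lower and none passed as higher. *PRM1* rose in each culture without passing (adjusted p = 0.0711 from limma).

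The general stress list, targets of the factors Msn2 and Msn4, gave 9 of 21 genes higher and none lower in limma (1 at an unadjusted p under 0.05 and 0 by the methods' t-test). *HSP12*, a stress gene of the membrane, read 12.08, 12.51 and 11.82 on CR-treated and 11.19, 11.29 and 9.75 on untreated arrays, so that the changes in cultures 1 to 3 were 0.89, 1.22 and 2.08 and culture 3 moved most. *TMA10* behaved alike, with 9.41, 9.65 and 9.85 with CR and 8.70, 8.71 and 7.75 without it. The median change of the list was 0.30 in culture 1, 0.28 in culture 2 and 0.63 in culture 3. The number of members that passed was 11 without culture 1, 6 without culture 2 and 6 without culture 3, and 3 with the culture block left out.

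The genes of reserve carbohydrates that rose did so by less than 2-fold. Of 9 trehalose genes 4 were higher, *NTH1*, which encodes neutral trehalase, by 0.97, the acid trehalase gene *ATH1* by 0.52, and the synthesis genes *TPS2* and *TPS1* by 0.48 and 0.36. Genes of breakdown and of synthesis were thus both among them. *NTH1* read 10.67, 10.78 and 10.85 on CR-treated and 9.67, 10.19 and 9.52 on untreated arrays. Of the 4 trehalose genes, 2 passed without culture 2. Of 15 glycogen genes 5 were higher, with *GSY2*, the main glycogen synthase gene, and *GLC3*, the branching enzyme gene, both at 0.67, and 14 of the 15 had a change above 0. The median of the glycogen list was 0.45, against -0.02 for all genes, yet with the culture block left out none of its members passed (3 passed without culture 2 and 3 without culture 3).

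In autophagy, 13 of 33 genes were higher and none was lower in limma (0 at an unadjusted p under 0.05; 0 by the methods' t-test). *ATG8*, whose protein coats the autophagosome membrane, read 10.29, 10.25 and 10.45 on CR-treated and 9.15, 9.13 and 8.85 on untreated arrays (log2 change 1.29, adjusted p = 0.00158 from limma). The initiating kinase gene *ATG1* changed by 0.57, the membrane protein gene *ATG9* by 0.46 and the receptor genes *ATG19* and *ATG34* by 0.53 and 0.73. Except for *ATG8* these changes were under 2-fold, with 5 genes passing without culture 2 and 5 with the culture block left out. Of the vacuolar hydrolase genes, *AMS1* read 9.0, 9.25 and 9.06 with CR and 7.83, 8.05 and 7.45 without it, and the protease gene *PRB1* read 10.52, 10.98 and 11.14 with CR and 9.44, 10.04 and 9.50 without it. Both rose more than 2-fold, while *APE1*, a cargo of the same selective route to the vacuole as *AMS1*, was lower, as given above.

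Mitochondrial and carbon genes moved little. Of 15 genes of the TCA cycle 4 were higher, led by the citrate synthase gene *CIT1*, with 11.81, 12.11 and 11.90 on CR-treated and 10.83, 11.41 and 10.85 on untreated arrays (0.91); the change was above 0 in all 15 genes, with a median of 0.18, and 1 gene passed without culture 2 and 1 without culture 3. Of 35 genes of the respiratory chain and ATP synthase 5 were higher, against 9.58% of all genes, with 2 passing without culture 2 and 3 without culture 3. The NADH dehydrogenase genes *NDE2* (0.87) and *NDE1* (0.67) were among the 5. Of 20 genes of glycolysis and fermentation, *PFK26* passed, which encodes the enzyme that makes the activator of phosphofructokinase, with 9.64, 9.85 and 10.04 with CR and 8.59, 8.87 and 8.89 without it. Of 26 genes of actin patches and endocytosis, 6 were higher, *ABP1* by 0.51 and *ARC18* by 0.43. The changes of all 26 actin genes were above 0, with a range of 0.04 to 0.51, but 2 passed without culture 2, 1 passed without culture 3 and none without the culture block.

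Among the lists, ribosome assembly held the most genes that were lower. Of 49 genes for the large subunit 37 were lower, and of 68 genes for the small subunit 49, against 8.46% of all genes, with no member higher (0 at an unadjusted p under 0.05 in limma and 0 by the methods' t-test). The 117 genes all had changes below 0. Of the 86 that passed, 85 fell by less than 2-fold, and they made up 18.7% of all genes that were lower. The medians were -0.44 for the large and -0.48 for the small subunit. In the 3 cultures the medians were -0.37, -0.37 and -0.60 for the large and -0.40, -0.40 and -0.62 for the small subunit, so that culture 3 moved furthest.

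*EFG1*, with the largest change of the small subunit list, read 8.56, 8.64 and 8.21 on CR-treated and 9.81, 9.39 and 9.50 on untreated arrays. *RRP8*, which encodes a methyltransferase of rRNA, read 9.15, 9.38 and 9.25 with CR and 10.06, 9.93 and 10.12 without it (-0.78, adjusted p = 0.00514 from limma). For the large subunit, *ECM1*, which encodes an export factor of the precursor of the large subunit, read 9.58, 8.89 and 9.02 with CR and 10.18, 9.91 and 9.98 without it (-0.86). *SDA1*, a gene for biogenesis and export of the same subunit, read 9.97, 9.94 and 10.32 on CR-treated and 10.77, 10.65 and 11.11 on untreated arrays, with culture 3 the highest in both groups (-0.77, adjusted p = 0.00271 from limma). *MAK16* (-0.72) and *MAK5* (-0.69) also fell. The counts depended on the cultures and on the block: without culture 2, 12 genes of the large and 26 of the small subunit passed, without culture 3 it was 22 and 35, and with the culture block left out 8 and 17. By the methods' t-test 1 and 0 passed after adjustment, and 28 and 47 were lower at an unadjusted p under 0.05.

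Genes of the polymerases that make rRNA and tRNA moved the same way. Of 8 genes of RNA polymerase I 5 were lower, among them *RPA34*, with 10.80, 10.56 and 10.79 on CR-treated and 11.41, 11.23 and 11.48 on untreated arrays (-0.65), and *RPA43* (-0.58). Of 12 genes of RNA polymerase III 7 were lower, led by *RPC25*, with 8.67, 8.40 and 8.60 with CR and 9.34, 9.14 and 9.41 without it (-0.74). The number of lower genes was 3 and 2 for polymerase I without culture 2 and without culture 3, and 2 and 4 for polymerase III. By comparison, of 128 genes that the name pattern put among the cytosolic ribosomal proteins 3 were lower and none was higher in limma (0 at an unadjusted p under 0.05; 0 by the methods' t-test), with a median of -0.07. Of the 3, *RPP1* (-0.65) encodes a subunit of RNase P and matched the pattern by its name alone. *RPL22B* (-0.39) was lost without culture 1 or culture 2, and *RPS10B* (-0.33) without any 1 of the 3 cultures. Of 66 mitochondrial ribosomal protein genes *MRPS17* was lower (-0.42), and of 20 tRNA synthetase genes *MES1* (-0.36), both lost without culture 2 or culture 3.

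**Figure D4:**
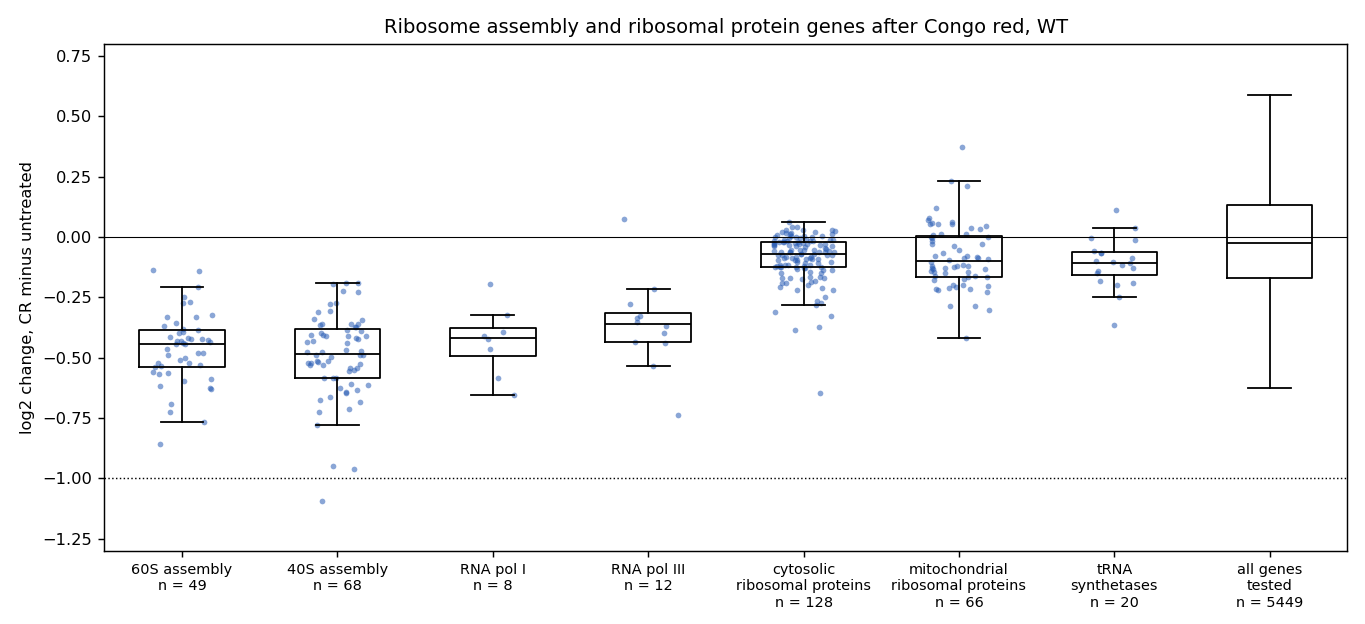
Log2 changes after CR (CR-treated minus untreated WT cells, vertical axis) are shown for the genes of 7 lists (points) and for all 5449 genes (box alone). Boxes span the quartiles with the median as a line, and whiskers reach the last value within 1.5 box lengths; the dotted line marks a ratio of 0.5. The boxes of large and small subunit assembly lie below that of all genes, with medians of -0.44 and -0.48, while cytosolic ribosomal proteins have a median of -0.07.

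Of 20 genes of purine and pyrimidine synthesis, 8 were lower and none was higher in limma (0 at an unadjusted p under 0.05; 0 by the methods' t-test). *URA7*, the CTP synthase gene, read 10.77, 10.75 and 10.66 on CR-treated and 11.24, 11.07 and 11.40 on untreated arrays (-0.51), and *IMD4*, which encodes an IMP dehydrogenase of GTP synthesis, changed by -0.48. *AAH1*, the adenine deaminase gene, lay outside this list and read 9.92, 9.70 and 9.96 with CR and 10.66, 10.60 and 11.00 without it (-0.90, adjusted p = 0.00243 from limma). The count of 8 was 1 without culture 2, 4 without culture 3 and 1 with the culture block left out. Of 44 genes of amino acid synthesis under the factor Gcn4, 3 were lower, *LYS20* (-0.96), *LEU9* (-0.69) and *ASN1* (-0.36), and without culture 1 it was 9.

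Transporters and nutrient regulons were mixed. Of 25 genes for the import of peptides, ammonium and amino acids, *OPT1* fell, with 8.18, 8.65 and 8.10 on CR-treated and 8.97, 9.66 and 9.77 on untreated arrays, and *OPT2* of the same family was higher, with 6.61, 6.96 and 6.03 with CR and 4.70, 5.78 and 5.12 without it. *DIP5*, which encodes a permease of acidic amino acids, was also lower (-0.43), and the lower genes of this list numbered 4 without culture 1 and 1 without culture 2. In the sulfur list of 26 genes, 6 were higher, among them the sulfate assimilation genes *MET14* (0.55) and *MET16* (0.50) and the regulator gene *MET28* (0.55). The import genes *MMP1* (-0.79) and *SAM3* (-0.61), for S-methylmethionine and S-adenosylmethionine, were lower there. Without culture 2 the sulfur list gave 3 higher and 1 lower gene, and without culture 3 it gave 6 and 1. Of 20 multidrug transporter and regulator genes 5 were lower and 2 higher, *TPO3* with the largest change (-0.78), but 1 was lower without culture 2 and 1 without culture 3, and without culture 2 none was higher (limma). Of 14 genes of the phosphate regulon, 4 were lower, *PHM6*, *PHO11* (-0.89), *SPL2* (-0.58) and *PHO3* (-0.49), and *PHO89*, which encodes a sodium-dependent phosphate transporter, was higher (0.83). With the culture block left out none of the 14 passed in limma or by the methods' t-test with adjustment, and at an unadjusted p under 0.05 in limma with the block 2 were higher and 6 lower. The median of this list over both parts of a culture, minus the other cultures, was -0.82 for culture 1, 0.06 for culture 2 and 0.75 for culture 3.

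The other lists held fewer calls. Of 24 iron uptake genes 4 were lower, with *FRE1* at -0.61 (1 without culture 2), and *HMX1* was higher (0.63, lost without culture 3). Of 25 genes of meiosis and sporulation, *SPO11*, *HOP1*, *IME2*, *NDT80* and *GAS2* were higher and *CRR1* lower (2 higher and 0 lower in limma without culture 2). The shares of all genes were 9.58% higher and 8.46% lower. *SPO11*, a gene of meiotic recombination, read 6.80, 6.94 and 4.77 on CR-treated and 4.63, 4.95 and 4.34 on untreated arrays, so that culture 3 moved least, and the call was lost without culture 2 (adjusted p = 0.0560 from limma). Of 13 seripauperin genes 6 were higher, all under 2-fold (4, 2 and 2 without cultures 1, 2 and 3), but these genes are near-identical and probe sets may read several of them. No gene of the proteasome (32 genes), of sterol synthesis (25), of the histones (10) or of SAGA and TREX-2 (18) passed in limma. At an unadjusted p under 0.05, 1, 2, 0 and 2 of them did, and by the methods' t-test with adjustment none did. *SUS1* itself had a change of 0.11 (adjusted p = 0.619) and *ACT1*, the actin gene, of 0.11 (adjusted p = 0.398 from limma).

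The 10 increases under 2-fold with the lowest p-values are given next. With the size of the change capped, a low p picks genes of little spread, so their evenness follows from the choice. *ARI1*, which encodes an NADPH-dependent aldehyde reductase, read 11.25, 11.29 and 11.32 on CR-treated and 10.35, 10.41 and 10.31 on untreated arrays, a ratio of 1.91 (SE 0.0833 on the log2 scale, adjusted p = 0.00150 from limma). *INP52*, the gene of a phosphoinositide phosphatase of the plasma membrane and endocytosis, read 8.60, 8.56 and 8.64 with CR and 7.70, 7.68 and 7.81 without it, and *STP2*, a transcription factor gene of amino acid sensing, read 9.29, 9.02 and 9.22 with CR and 8.28, 8.08 and 8.29 without it. In each of these 3 genes the arrays of a group lay within 0.3 of each other and the groups were more than 0.7 apart. *MSB3*, *PIN2*, *IML2*, *COM2*, *YNL208W*, *OAZ1* and *YMR315W* completed the 10, with ratios of 1.80 (*YMR315W*) to 1.97 (*OAZ1*).

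Among the decreases of this kind, *ICY1* read 9.86, 9.75 and 9.69 on CR-treated and 10.78, 10.59 and 10.50 on untreated arrays, without overlap (ratio 0.552). *CYC7*, which encodes the second isoform of cytochrome c, read 7.26, 7.87 and 6.25 with CR and 8.14, 8.95 and 7.17 without it. *PHO11*, an acid phosphatase gene, read 10.43, 10.68 and 12.11 with CR and 11.31, 11.56 and 13.01 without it. In both genes the cultures lay so far apart that the groups overlapped, yet the parts differed by -0.88, -1.07 and -0.92 in cultures 1 to 3 for *CYC7* and by -0.88, -0.88 and -0.90 for *PHO11*. Their calls rest on the pairing, since without the culture block the adjusted p was 0.357 for *CYC7* and 0.432 for *PHO11* (limma).

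Some genes responded unevenly. Among genes brighter than the median gene, the SD of the 3 culture changes was largest for *YAR009C*, a Ty1 gene, which read 9.82, 10.53 and 11.42 on CR-treated and 10.74, 10.34 and 10.74 on untreated arrays and so fell in culture 1 and rose in culture 3. *YLR264C-A* (-0.83, -0.19 and 0.37 in cultures 1 to 3, not passing) also belonged to the 5 genes of largest spread. *RTC3* was another, with 10.44, 10.44 and 10.40 with CR and 9.57, 9.65 and 8.15 without it: the CR-treated cultures were level, and culture 3 started lower. *HSP12* shared the lower start of culture 3, but its CR-treated arrays were not level, at 12.08, 12.51 and 11.82. *PAU9* (9.44, 8.88 and 10.15 with CR and 10.04, 8.89 and 9.36 without it) moved in opposite directions in cultures 1 and 3. For *YAR009C* and *PAU9*, whose changes of -0.02 and 0.06 did not pass, near-identical copies in the genome limit what the probe set can tell.

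Culture 3 stood apart from the other cultures in both of its parts. By the mean of its 2 arrays, 20 genes lay at least 2-fold above and 47 at least 2-fold below the other 2 cultures, against 18 and 6 for culture 1 and 28 and 10 for culture 2. Several of those below were genes of mating. *FIG1*, a gene of mating fusion, read 8.17, 8.60 and 3.62 on CR-treated and 8.47, 9.02 and 3.90 on untreated arrays, and *ASG7*, an a-specific gene, read 9.88, 9.82 and 6.97 with CR and 9.50, 9.81 and 7.04 without it. *AGA1*, which anchors a-agglutinin, read 11.04, 11.05 and 8.61 with CR and 10.65, 10.98 and 8.72 without it. Among those above were genes of iron uptake, such as *FRE5*, with 3.85, 3.96 and 6.33 with CR and 3.53, 3.47 and 7.06 without it, and *FIT1*, with 8.97, 8.76 and 11.06 with CR and 9.07, 8.96 and 11.75 without it. For these 5 genes the parts of culture 3 lay nearer to each other than to the other cultures, and only *FIG1* passed for CR, with -0.33, a call lost without any 1 of the 3 cultures.

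**Figure D5:**
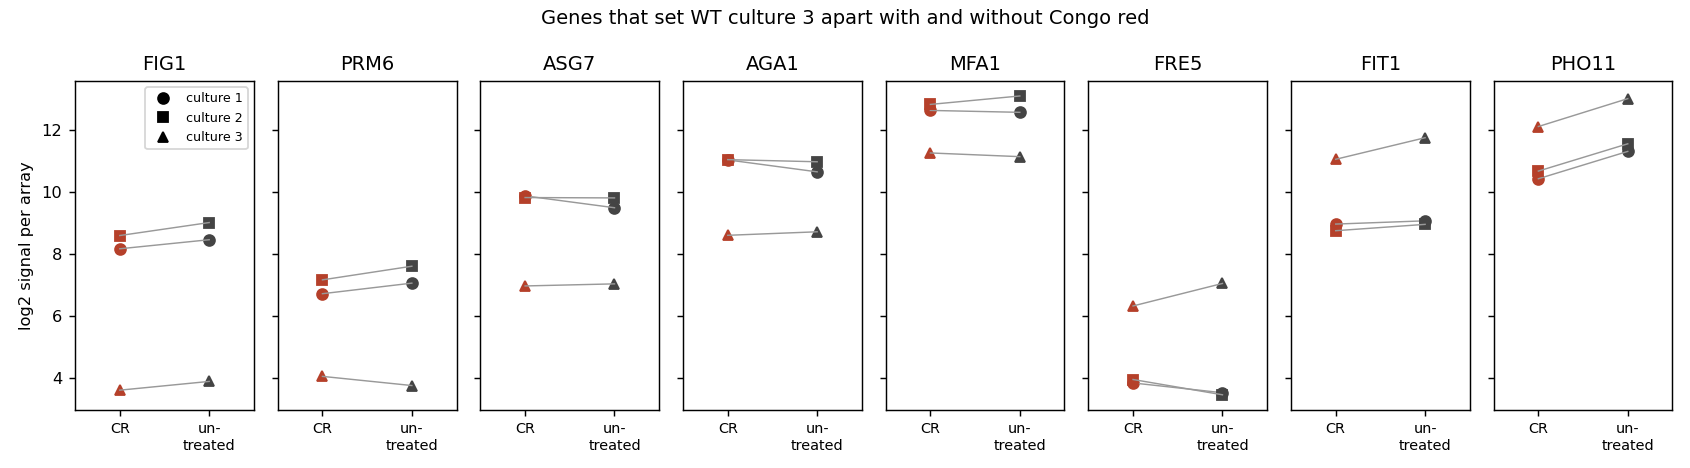
Log2 signals of 8 genes on the 3 CR-treated WT arrays (red, left) and the 3 untreated WT arrays (dark grey, right), with a symbol for each culture and lines that join its parts. Triangles (culture 3) lie below the other cultures for *FIG1*, *PRM6*, *ASG7*, *AGA1* and *MFA1* and above them for *FRE5*, *FIT1* and *PHO11*, with and without CR.

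Some of the called genes lay side by side. By the order of genes in the R64 annotation, 146 of the 522 higher genes (28.0%) had a direct measured neighbour that was also higher, and 103 of the 461 lower genes (22.3%) a neighbour that was also lower. Of all 5449 genes, 18.2% had a neighbour that was higher and 16.3% a neighbour that was lower. There were 18 runs of 3 or more neighbours called in the same direction, 11 of them higher. The longest held 4 genes, *FMP33* (1.84), *PIR5*, *HSP150* and *CIS3*, 3 of which are PIR genes. *PRM10*, *YJL107C* (1.77) and *IME2* (0.87) formed another, and *PRB1*, *SOM1* (1.06) and *PCM1* a further one. A run of lower genes held *YAR066W*, *YAR068W* and *PHO11*, with changes of -0.77, -0.89 and -0.89, whose probe sets may read similar genes near other chromosome ends. Whether neighbours share transcripts or regulation was not tested.

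Systematic names alone belonged to 107 of the called genes, 66 higher and 41 lower. Such names were not counted over all genes tested, so the share of them that was called is not given. The 5 called genes of this kind with the lowest p were *YNR065C*, *YPL088W*, *YIL108W*, *YBL100W-A* and *YJL107C*. *YNR065C*, which encodes a sortilin-like membrane protein, read 11.11, 11.01 and 11.10 on CR-treated and 8.94, 8.66 and 8.74 on untreated arrays (log2 change 2.29, adjusted p = 6.70e-05 from limma). *YIL108W*, a gene for a putative metalloprotease, read 10.44, 10.60 and 10.13 with CR and 9.09, 9.26 and 8.85 without it (1.32). *YJL107C*, next to *PRM10*, read 7.34, 7.32 and 7.62 with CR and 5.06, 5.84 and 6.07 without it. All 3 rose in each culture, the last from untreated levels that differed between the cultures. Of the 87 genes that rose at least 2-fold, 42 belonged to the 64 lists and 45 to none of them. Of all 5449 genes tested, 1367 belonged to a list.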

How the data were processed

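RNA of 6 WT and 6 *sus1*Δ samples was hybridized to Affymetrix GeneChip Yeast Genome 2.0 arrays, 1 array per sample. The deposited values are log2 signals per probe set, made by the authors with RMA (background correction, quantile normalization and probe set summary) in the Expression Console. Neither its version nor which arrays were normalized jointly is stated in the sources at hand. RMA reports no detection call, and low signals compress fold changes.

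Of 5739 probe sets, 5498 had 1 gene in the platform annotation, all matched to the R64 annotation by Entrez ID, none had several, and 241 had no entry. Where a gene had more than 1 probe set (47 genes) the brightest was kept and 49 probe sets were left out, which gave 5449 genes. R64 served for names and gene order only.

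The main test was limma 3.58.1 (R 4.3.3) on the 6 WT arrays, with culture as a block and Benjamini-Hochberg adjustment over 5449 genes. A gene was called at an adjusted p under 0.05. The pairing comes from the methods, which state that each culture was divided, and was checked on deviations from group means across genes: both parts of 1 culture correlated at 0.504, 0.716 and 0.628, and arrays of different cultures at -0.595 to -0.00551. Deviations within a group cancel out for each gene, so negative values between cultures follow from positive ones within cultures and are no separate check. Alternatives were an unblocked fit, fits of all 12 arrays, the methods' t-test, robust variance with a trend, quantile normalization, median centring, the mean of probe sets, a filter on dim genes and leaving out each culture. The difference of responses between strains and the fit over all probe sets were chosen after seeing the data. Scripts were tested on simulated data.

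The genes named are the 10 largest increases and decreases whose arrays do not overlap, the 10 of lowest p under 2-fold in each direction, up to 4 called members of each of 64 lists (or, with none called, the member furthest from 0), *SLT2*, *RLM1*, *ACT1* and *SUS1*, the 5 of lowest p with a systematic name only, the 5 of largest spread between cultures, and runs of 3 or more neighbours. Others, those of culture 3 included, were chosen after their values were seen. The members and lists were chosen with earlier results of these data known. No sequences are printed.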

Additional observations from a re-analysis of the deposited data

Results flagged for a closer look

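Of 42 of the genes named for their size or p-value, 16 differed between the responses of *sus1*Δ and WT cells to CR in limma over all 12 arrays (culture as a block, difference of the 2 responses, adjusted over 5449 genes), and in each of the 16 the change was the smaller one in *sus1*Δ. Over all 5449 genes, 45 (0.826%) differed, 12 above and 33 below 0. The 42 genes were picked by their size or p in WT cells, which enter the difference, so neither the count nor this direction is independent of the choice. The response of *PIR3* was 3.17 in *sus1*Δ and 5.25 in WT cells, a difference of -2.08, with an SE of 0.21 and an adjusted p of 0.0205 (limma). *PIR3* read 6.96, 7.07 and 7.10 on untreated *sus1*Δ and 6.0, 6.64 and 5.86 on untreated WT arrays. The lowest 5% of probe sets ended at 5.36 to 5.49 on the *sus1*Δ and at 4.53 to 4.80 on the WT arrays. The part of this higher lower end in the smaller changes of genes that are dim without CR was not tested. Differences of the same sign were -0.97 for *KDX1*, -1.23 for *CRG1*, -0.98 for *YPL088W*, -1.33 for *GSC2*, -1.44 for *RTA1* and -1.17 for *YNR065C*, with adjusted p-values from limma of 0.0205 to 0.0362. Among increases under 2-fold, *PIN2*, *IML2* and *INP52* differed by -0.53, -0.62 and -0.65. Among decreases, the response of *YBL100W-A* was -0.42 in *sus1*Δ and -2.38 in WT cells, a difference of 1.96, and that of *APE1* was -0.70 in *sus1*Δ and -1.62 in WT cells (0.92). *SHU2*, *CYC7*, *ICY1* and *YAR068W* differed by 0.73, 0.54, 0.58 and 0.85.

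The 241 probe sets with no gene in the platform annotation were outside the comparison of genes. In a limma fit over all 5739 probe sets, 45 of them were higher and 6 were lower after CR, 9 and 1 of them past 2-fold. In the fit of 5449 genes the shares were 9.58% higher and 8.46% lower, with 1.6% and 0.128% past 2-fold. The shares called over all 5739 probe sets were not counted. The probe set 1778149_at read 8.76, 9.60 and 9.50 on the CR-treated and 5.42, 6.35 and 6.01 on the untreated WT arrays (log2 change 3.36, adjusted p = 2.08e-05 from limma). The probe set 1774824_at changed by 2.96 and 1779659_at by 2.85, so that 3 unnamed probe sets rose more than 4-fold. The remaining 6 were 1777081_at (1.63), 1770054_at (1.51), 1772647_at (1.49), 1770166_at (1.25), 1777669_at (1.24) and 1776145_at (1.23), all above the untreated level in each culture. Which transcripts these probe sets read was not worked out here.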

How the results depend on the processing

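With the culture block left out, 218 genes were higher and 107 lower in CR-treated than in untreated WT cells, all of them among the 522 and 461 called with the block, and the counts past 2-fold were 77 and 6. Fitting all 12 arrays with culture as a block gave 813 higher and 818 lower genes. The methods' t-test after adjustment called 71 higher and 16 lower genes, 33 and 1 of them past 2-fold; unadjusted, with ratios of mean signals, it gave 76 and 6 past 2-fold. Leaving out each culture in turn gave 271 to 474 higher and 157 to 530 lower genes, the fewest without culture 2, with 76 to 89 at least 2-fold higher and 7 to 21 at a ratio of 0.5 or less. Without the dimmest genes, 4 genes in place of 7 fell to 0.5 or less, since fewer genes (4133) were tested. The other alternatives stayed within 1.5 times each count: 12 arrays without a block gave 512 and 491 genes, robust variance 631 and 670, quantile normalization 574 and 566, median centring 564 and 493, and the mean of probe sets 524 and 457. Of 237 named genes, 34 kept their side of the threshold in every setting. The unblocked fit lost 120, leaving out cultures 1, 2 and 3 lost 29, 80 and 48, the t-test 199, and the 12 arrays without a block 45, while quantile normalization lost 5, the trend 4, median centring 2 and the mean of probe sets 1. *SUS1*, not called, changed by -0.043 to 0.298 with a culture left out, below 0 without culture 3. Causes were not tested. Signals near the lower end of the arrays (*BAG7*, *PIR3* and *KDX1* without CR, *GUP2* with CR, *FRE5*, *FIG1* in culture 3) limit fold changes there.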

Other observations

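Several gene groups were called at few members in WT cells after CR. Of 17 genes of the ER chaperones and the unfolded protein response, *PDI1*, the disulfide isomerase gene (0.36), and *SIL1* (0.60) were higher, 16 of the 17 had a change above 0, and 1, 0 and 2 members passed without cultures 1, 2 and 3 (limma). Of 23 genes of cytosolic and mitochondrial chaperones, *SSE2* (0.65) and *HSP31* (0.43) were higher, whereas the Hsp90 gene *HSP82* had a change of -0.23 and did not pass. Without culture 2 and without culture 3, 1 of the chaperone genes passed, and without culture 1 there were 3 higher and 1 lower.

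Of 26 genes of oxidative stress defence, *OYE3* (0.60) and *GPX1* (0.39) were higher and *GPX2* (-0.75) and *GRX4* (-0.35) lower. Among all genes, 9.58% were higher and 8.46% lower. Of this list 1 in each direction passed without culture 2 and without culture 3, and 4 higher and 1 lower without culture 1. Of 18 genes of gluconeogenesis, the glyoxylate cycle and carnitine transport, the regulator genes *ADR1* (0.88) and *CAT8* (0.70) and the enzyme genes *ALD4* (0.46) and *CIT2* (0.41) were higher, while *ICL1* and *MLS1*, both of the glyoxylate cycle, had changes of 0.01 and 0.08. Without culture 2, 1 of these 4 genes passed. *ADR1* read 8.03, 9.18 and 8.50 on the CR-treated and 7.20, 8.08 and 7.80 on the untreated arrays.

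Of 16 cyclin and G1 to S genes, *CLN2*, a G1 cyclin gene, was higher (0.39) beside *SRL3*, and 1 of the list passed without culture 2 and without culture 3. The B-type cyclin genes had changes of -0.14 to 0.00 and did not pass. Of 24 genes of DNA replication and ribonucleotide reductase, *ORC1* was lower (-0.43), a call lost without culture 2 or culture 3. Of 10 genes of daughter cell separation, *ASH1* was higher (0.47) and *DSE4* lower (-0.34); *ASH1* was lost without culture 2, and *DSE4* without any 1 of the 3 cultures.

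Single members passed in 4 further lists: *HXT5* among 20 genes of hexose transport (0.44), *OPI3* among 14 of fatty acid and phospholipid synthesis (0.49), *SNF11* among 12 of SWI/SNF (0.34) and *CUP2* among 8 of zinc and copper uptake (0.63). Without culture 2, only *CUP2* of these passed. Of 6 aryl alcohol dehydrogenase genes, *AAD10* (0.42) was higher beside *YPL088W*, and 1 of them passed without culture 1 and without culture 2. Of 9 genes that the name pattern put in the COS family, *COS111*, which is no family member but matched by name (0.98), *COS6* (0.53) and *COS4* (0.36) were higher and *COS12* was lower (-0.68), and probe sets of the family may read several near-identical copies.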
